A study of Homo sapiens and Mus musculus with 36 samples.

Results

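The genes of protein folding in the endoplasmic reticulum (ER) and of the unfolded protein response were followed through RNA sequencing of DOT1L-edited and DOT1L-inhibited tumour cell lines. The set holds 32 genes, matched by symbol to the human files and by the title-case symbol to the mouse files. All 32 are among the 26457 symbols of the HuH-7 guide libraries and the 22673 of the mouse libraries, and 31 are among the 15899 of the drug libraries, where DERL3 is not listed. The series compares cells that carry a guide RNA against DOT1L, a histone H3 methyltransferase, with cells that carry the control guide sgNeg2. HuH-7, a human hepatocellular carcinoma line, was sequenced with sgNeg2 or either of 2 DOT1L guides, each without treatment and with interferon (IFN). Unedited HuH-7 cells were also given DMSO or the DOT1L inhibitor EPZ-5676, the latter for 7 days. Hepa1-6 and Hep53.4, mouse liver tumour lines, and LLC, a mouse lung carcinoma line, were sequenced with sgNeg2 or either of 2 Dot1l guides. Each guide has 2 libraries per setting and each drug arm 3, which makes 36 libraries in 17 groups. The sources used here do not give the type, dose and duration of IFN, the dose of EPZ-5676 or the duration of DMSO, nor whether an edited line is a clone or a mixed population. The genotype label of sgNeg2, DMSO and EPZ-5676 cells is wild type. Both guides together are called knockout, with 4 libraries set against the 2 of sgNeg2. The labels do not say that replicates came from separate cultures, so p-values measure the spread between these libraries, which may be technical.

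DOT1L transcript checks the labels only in part, since an edited gene may still be transcribed. It was 75.4 and 73.1 CPM in the sgNeg2 libraries, 35.6 and 32.1 with guide 1 and 40.4 and 34.8 with guide 2, where CPM are library-scaled counts as edgeR computes them. In all 5 line and IFN settings every edited library fell below both of its controls. The level was 51.8 to 54.5 CPM with DMSO against 47.6 to 51.1 CPM with EPZ-5676. Library totals were 19580588 to 22649969 counts in untreated HuH-7 guide libraries, 47594968 to 61227426 with IFN, 48912627 to 58628528 in the drug libraries and 42637155 to 59686358 in the mouse lines. Histone and small RNA genes held 4.06 to 6.87% of the counts of the untreated HuH-7 guide libraries, 0.0446 to 0.0574% with IFN and 0.0505 to 0.0529% in the drug libraries. Untreated HuH-7 guide libraries therefore differ in kind as well as in depth from the others. All 10 hepatocyte markers exceeded 1 CPM in HuH-7, against 5 of 8 listed in Hepa1-6, 3 of 8 in Hep53.4 and 1 of 8 in LLC. In Hep53.4 the sgNeg2 libraries had Apoa1, Ttr and Fgb at 0 and Hnf4a at 215 CPM. Markers of plasma cells, which carry a large ER, summed to at most 0.69 CPM in any library. Of 6 lung markers, LLC lacked Nkx2-1, Sftpc and Scgb1a1 in its sgNeg2 libraries and only Nkx2-1 in all its edited ones. The highest, Napsa, was at 1.015 CPM in LLC sgNeg2 cells and 40.9 CPM in Hep53.4 sgNeg2 cells.

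The ER folds secreted and membrane proteins with chaperones of the Hsp70 and Hsp90 families, sugar-binding chaperones and disulfide isomerases, and hands misfolded clients to ER-associated degradation (ERAD). When folding demand exceeds this capacity, the sensors ATF6, IRE1 (gene ERN1) and PERK (gene EIF2AK3) raise chaperone transcription, splice XBP1 messenger RNA and slow protein synthesis. Hepatocytes secrete large amounts of plasma protein and carry an extensive ER.

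Many folding genes share a promoter element, the ER stress response element, which ATF6 and XBP1 bind together with the CCAAT factor NF-Y. RefSeq promoters of assembly GRCh38.p14, 250 bases before to 50 after the start site, were at hand for 29 of the 32 members. ERSE, which is CCAAT, any 9 bases and CCACG, searched on both strands, occurred in 6 of the 29 (20.7%), against 27 of all 35116 promoters (0.0769%). ERSE-II, which is ATTGG, any 1 base and CCACG, searched likewise, occurred in 3 of the 29 (10.3%), against 19 of all promoters (0.0541%). The windows below are the bases around those matches, shown because these 9 genes include those that moved most with IFN. They run 5′ to 3′ on the gene's strand, and capitals mark the fixed letters of the element.
HSPA5, chr9:125241381-125241419, minus strand: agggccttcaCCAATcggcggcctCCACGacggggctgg
HYOU1, chr11:119057264-119057400, minus strand: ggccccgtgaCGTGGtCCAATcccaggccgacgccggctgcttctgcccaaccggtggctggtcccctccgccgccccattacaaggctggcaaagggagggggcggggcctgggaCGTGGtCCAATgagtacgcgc
HSP90B1, chr12:103930206-103930349, plus strand: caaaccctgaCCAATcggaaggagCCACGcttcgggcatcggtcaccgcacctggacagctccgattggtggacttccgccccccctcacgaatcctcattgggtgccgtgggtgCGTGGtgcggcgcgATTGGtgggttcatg
CALR, chr19:12938374-12938412, plus strand: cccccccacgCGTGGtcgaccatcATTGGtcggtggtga
CANX, chr5:179698768-179698806, plus strand: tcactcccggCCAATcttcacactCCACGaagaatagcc
SDF2L1, chr22:21642104-21642134, plus strand: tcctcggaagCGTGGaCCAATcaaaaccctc
CRELD2, chr22:49918544-49918582, plus strand: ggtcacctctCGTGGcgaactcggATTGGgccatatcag
XBP1, chr22:28800593-28800631, minus strand: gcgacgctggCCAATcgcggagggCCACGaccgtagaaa
HERPUD1, chr16:56932015-56932045, plus strand: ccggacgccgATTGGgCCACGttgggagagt
HSP90B1 and HYOU1 each hold the element at 2 places, which lie 194 and 89 bases before the start site in HSP90B1 and 185 and 79 bases before it in HYOU1. In HYOU1 the first ERSE-II match overlaps the only match among the 29 to TGACGTGG, the core of the XBP1 element, which 0.729% of all promoters hold. The elements of the other 7 genes begin between 225 bases (CALR) and 52 bases (XBP1) before the start site. A match describes letters in the window and is no measurement of binding.

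Levels per kilobase of the longest coding transcript ordered the genes within untreated sgNeg2 HuH-7 cells. CALR, a sugar-binding chaperone, was highest at 470 ± 7.48 CPM per kilobase (SD, n = 2). HSP90B1, the Hsp90 of the ER, followed at 297 ± 7.89, and P4HB, the classical disulfide isomerase, at 269 ± 7.81. HSPA5, the Hsp70 of the ER also called BiP, stood at 119 ± 0.54. At the low end were SDF2L1, a partner of the ER J proteins, at 7.28 ± 0.13, CRELD2, an ER protein induced by misfolding, at 5.10 ± 0.074, and ERN1 at 1.81 ± 0.16. CANX (227 ± 1.91) came after P4HB, and the transcription factor XBP1 (148 ± 4.70) came next, above HSPA5. Sensors had low levels, yet DNAJB9 (7.39 ± 1.25), SDF2L1, DNAJC3 (6.06 ± 0.47) and CRELD2 lay below ATF6 and EIF2AK3. ATF6 was at 10.7 ± 0.29 and EIF2AK3 at 9.27 ± 0.087, and DERL3 had no count in either library. The next gene below HSPA5 in this order was PDIA4 at 109 ± 2.44, and MANF (27.6 ± 2.48) and SEL1L (26.4 ± 0.077) were neighbours. These SDs measure the spread between libraries and leave out the uncertainty of the transcript length, so they do not tell which genes differ. With DMSO HSPA5 stood above XBP1, at 271 ± 1.52 and 194 ± 2.53. The same held in sgNeg2 cells with IFN, at 452 ± 0.82 and 182 ± 0.078. Together the members held 0.737% of counts in untreated sgNeg2 cells, 1.06% with DMSO and 1.27% in sgNeg2 cells with IFN.

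In untreated HuH-7 cells DOT1L knockout changed 7 of the 31 members tested. HSPA5, HSP90B1, the J protein DNAJB11 and MANF, a secreted factor that binds HSPA5, rose. ATF6, XBP1 and HERPUD1, a scaffold of ERAD, fell. Of all genes tested, 11.3% were called, 6.95% higher and 4.38% lower, at the same threshold, an adjusted p below 0.05 by edgeR's quasi-likelihood test with Benjamini-Hochberg adjustment over all genes. The median log2 change was 0.086 over the members and 0.0030 over all genes. Fewer cells of a type and less RNA per cell cannot be told apart in such bulk samples.

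HSPA5 was 462 and 465 CPM in the sgNeg2 libraries, 546 and 565 with guide 1 and 603 and 639.5 with guide 2. All 4 edited libraries exceeded both controls, and the log2 change was 0.34 ± 0.067 (SE), adjusted p = 0.00476. MANF had 29.8 and 33.9 CPM in the sgNeg2 libraries, 43.0 and 40.3 with guide 1 and 38.6 and 48.0 with guide 2, also without overlap, and a log2 change of 0.42 ± 0.096 (SE), adjusted p = 0.0134. DNAJB11, which brings clients to HSPA5, was 57.3 and 61.4 CPM in the sgNeg2 libraries, 80.8 and 77.7 with guide 1 and 73.4 and 80.2 with guide 2. Its edited libraries were all above the controls, with a log2 change of 0.39 ± 0.073 (SE), adjusted p = 0.0035. HSP90B1 was 832 and 864 CPM in the sgNeg2 libraries, 1055 and 1031 with guide 1 and 1008 and 1229 with guide 2, with a log2 change of 0.35 ± 0.10 (SE), adjusted p = 0.0474. This call was lost in 11 of 15 other settings, among them each of the 6 that left out 1 library, relative log expression scaling and either guide alone.

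HERPUD1 moved the other way, from 60.0 and 61.3 CPM in sgNeg2 to 44.6 and 43.5 with guide 1 and 48.8 and 48.2 with guide 2. Every edited library was lower, and the log2 change was -0.39 ± 0.077 (SE), adjusted p = 0.00514. It was the only member called with guide 1 alone and with guide 2 alone in the same direction. ATF6 was 81.7 and 78.7 CPM in the sgNeg2 libraries, 64.7 and 64.8 with guide 1 and 67.1 and 67.1 with guide 2, again without overlap, with a log2 change of -0.28 ± 0.078 (SE), adjusted p = 0.0328. Its call was lost in 8 of 15 other settings, with 5 of the 6 libraries left out in turn and with either guide alone, and its sign was negative in all of them. XBP1 was 279.5 and 267 CPM in the sgNeg2 libraries, 218 and 217 with guide 1 and 251 and 233 with guide 2, with a log2 change of -0.25 ± 0.068 (SE), adjusted p = 0.0295. All 7 called members had the same sign with either guide alone.

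The other 24 tested members did not pass, with log2 changes from -0.32 for EDEM2 to 0.24 for CANX. EDEM1 and EDEM2, which trim mannose from ERAD clients, were lower in every edited library yet missed the threshold, at -0.27 ± 0.084 (SE), adjusted p = 0.0587 and -0.32 ± 0.097 (SE), adjusted p = 0.0518. CALR had a log2 change of 0.18 ± 0.067 (SE), adjusted p = 0.106, DNAJB9 of 0.17 ± 0.14 (SE), adjusted p = 0.488 and SDF2L1 of -0.069 ± 0.27 (SE), adjusted p = 0.909. In all, 19 of 31 members had no overlap between edited and control libraries, against 45.9% of all genes. No member was called when either sgNeg2 library was left out, 4 were called without replicate 1 of guide 1, and 17 were called (9 higher, 8 lower) when each library's trend with GC content was removed. The scaling moved the balance of calls. Over all genes 61.4% of calls were higher, against 51.0% with relative log expression scaling, 47.1% with DESeq2, 47.6% without histone and small RNA genes and 34.3% with the GC trend removed, where the members split into 3 higher and 5 lower, 4 and 6, 3 and 5, and 9 and 8. The summed level of the 10 hepatocyte markers also moved, from 7219 to 7248 CPM in sgNeg2 to 5383 to 6301 CPM in edited libraries, with no marker at 0. Summed fibroblast markers, led by COL1A1, went from 3.06 to 6.26 CPM to 10.7 to 15.3 CPM, with 4 of 5 tested, 2 higher and none at 0. Summed endothelial markers, led by PECAM1, went from 8.61 to 9.67 CPM to 16.0 to 18.4 CPM, with KDR at 0 in every library. The part of these lists in the results was not tested.

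**Figure D1:**
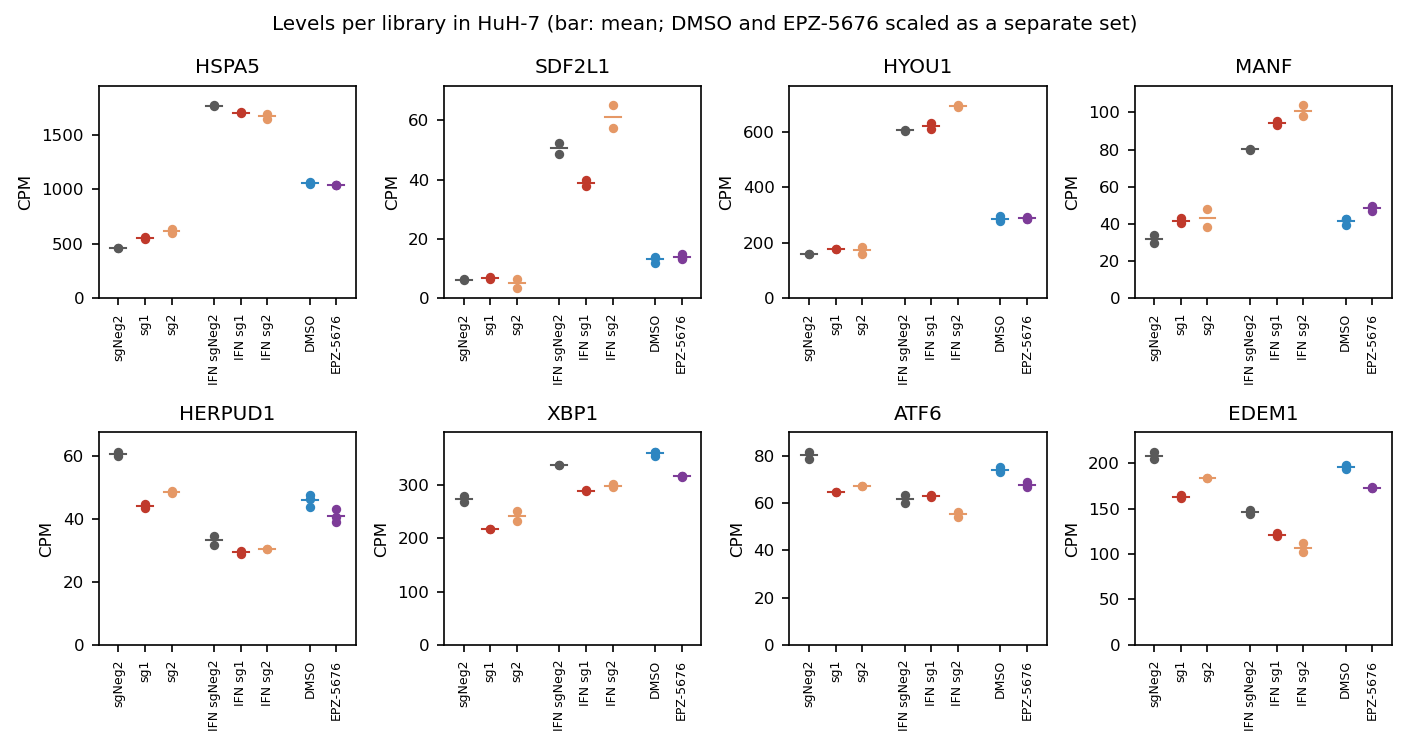
Levels of 8 members in each HuH-7 library in CPM, with a point per library and a bar at the mean of each guide or drug arm. HSPA5, SDF2L1, HYOU1 and MANF sit highest in the IFN libraries, and HERPUD1, ATF6 and EDEM1 sit below untreated sgNeg2 there.

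With IFN present, knockout changed 1 of 31 members. EDEM1 fell, against 12.4% of all genes called, 7.11% higher and 5.27% lower, and the median was 0.021 over members and -0.058 over all genes. EDEM1 was 148 and 144 CPM in sgNeg2, 123 and 119.7 with guide 1 and 112 and 102 with guide 2. The edited libraries were all lower, and the log2 change was -0.36 ± 0.084 (SE), adjusted p = 0.0122. It was also called with each guide alone. Edited and control libraries did not overlap for 9 of 31 members, against 32.8% of all genes. Among members that did not pass, XBP1 had -0.20 ± 0.067 (SE), adjusted p = 0.0803 and HERPUD1 -0.15 ± 0.077 (SE), adjusted p = 0.254. HSPA5 was at -0.07 ± 0.065 (SE), adjusted p = 0.567, CALR at 0.021 ± 0.066 (SE), adjusted p = 0.896, SDF2L1 at -0.014 ± 0.22 (SE), adjusted p = 0.993 and DNAJB9 at 0.017 ± 0.14 (SE), adjusted p = 0.973. SDF2L1 separated the guides, at 37.9 and 39.8 CPM with guide 1 and 57.3 and 65.0 CPM with guide 2, either side of the 48.7 and 52.3 CPM of sgNeg2. Over all genes 57.4% of calls were higher, against 71.3% without histone and small RNA genes and 34.6% with the GC trend removed. EDEM1 lost its call without either IFN sgNeg2 library and in a fit of the 6 IFN libraries alone. The interaction test, which asks whether knockout acted differently with IFN, called 0 of 31 members with edgeR, against 0.505% of all genes, 0.207% higher and 0.298% lower. Over all genes 41.0% of the interaction calls were higher, against 56.0% with relative log expression scaling and 75.7% without histone and small RNA genes. At an unadjusted p below 0.05 there were 4 members. DESeq2 called 1, HSPA5, lower, with a difference of -0.36 (adjusted p = 0.0217). With edgeR HSPA5 came nearest, with a difference of -0.41 ± 0.093 (SE), adjusted p = 0.0758. The changes of the other panel genes differed by -0.15 ± 0.20 for DNAJB9, 0.24 ± 0.11 for HERPUD1, 0.055 ± 0.096 for XBP1, 0.055 ± 0.35 for SDF2L1 and -0.16 ± 0.093 for CALR.

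IFN-treated sgNeg2 cells differed from untreated ones in nearly the whole set, and IFN cannot be told apart here from the kind of library. Chaperones, lectin chaperones, disulfide isomerases, secreted ER factors and translocon subunits all rose, 13 of 13 tested. The sensors ATF6 and EIF2AK3, CREB3L2, an ER-bound transcription factor, the J protein DNAJC3 and 4 of 8 tested ERAD genes fell. In all 29 of 31 members were called, 21 higher and 8 lower, against 67.8% of all genes, 33.0% higher and 34.7% lower. Libraries did not overlap for 30 of 31 members, against 87.2% of all genes. Median log2 change was 0.63 over members and -0.064 over all genes.

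SDF2L1 moved most, from 6.37 and 6.22 CPM to 48.7 and 52.3 CPM, with no overlap and a log2 change of 3.0 ± 0.30 (SE), adjusted p = 1.24e-06. CRELD2 went from 7.97 and 8.13 CPM to 31.7 and 33.9 CPM, a log2 change of 2.03 ± 0.17 (SE), adjusted p = 2.37e-07. HSPA5 went from 462 and 465 CPM to 1766 and 1770 CPM, a log2 change of 1.93 ± 0.078 (SE), adjusted p = 3.53e-10. These genes and HYOU1, the exchange factor that recycles HSPA5, all carry an element printed above. HYOU1 rose from 161 and 159 CPM to 608 and 604 CPM, a log2 change of 1.92 ± 0.088 (SE), adjusted p = 1.11e-09. Log2 changes of DNAJB11, PDIA3, CALR and MANF were 1.58 ± 0.084, 1.57 ± 0.092, 1.37 ± 0.077 and 1.33 ± 0.11. Over the 9 genes with an element, 8 rose and the median log2 change was 1.37, and over the 20 without, 11 rose and it was 0.30. Against DMSO, the other control, 6 of the 9 rose and CANX, XBP1 and HERPUD1 fell, while of the 20 without, 10 rose and 9 fell. Of all genes 35.6% rose and 34.7% fell against DMSO, and the medians were 0.41 over the 9 and 0.078 over the 20. With EPZ-5676 these medians were -0.0066 and 0.0077. Both motifs were chosen with the changes known. The exception among the 9 against untreated cells was HERPUD1, which fell from 60.0 and 61.3 CPM to 31.9 and 34.5 CPM, a log2 change of -0.87 ± 0.09 (SE), adjusted p = 1.9e-06.

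Of the 3 sensors, 2 fell with IFN. EIF2AK3 fell from 43.4 and 42.8 CPM to 28.2 and 27.2 CPM and ATF6 from 81.7 and 78.7 CPM to 60.1 and 63.5 CPM, log2 changes of -0.64 ± 0.11 and -0.38 ± 0.091. ERN1 did not pass at 0.15 ± 0.14 (SE), adjusted p = 0.367, nor did DNAJB9 at -0.12 ± 0.16 (SE), adjusted p = 0.531. XBP1 was up by 0.30 ± 0.079 on the log2 scale, and gene counts do not separate its spliced form. The ERAD genes divided. SYVN1 (the ligase HRD1), EDEM2, DERL1 and DERL2 rose, and SEL1L, the partner of SYVN1, EDEM1, EDEM3 and HERPUD1 fell. GC content of the transcript was 58.9% in SYVN1, 54.6% in EDEM2, 44.85% in DERL1 and 39.4% in DERL2. It was 39.4% in SEL1L, 45.2% in EDEM1, 38.6% in EDEM3 and 47.9% in HERPUD1. Over all genes the IFN change had a Spearman correlation with GC content of 0.30 in sgNeg2 cells and 0.40 in knockout cells. The part of GC content in the split was not tested. In knockout cells 29 of 31 members were called with IFN, against 78.6% of all genes. Of these 20 rose and 9 fell (36.4% and 42.2% of all genes), with a median of 0.58 against -0.098 over all genes. Libraries did not overlap for 28 members, against 72.6% of all genes. The 29 called in knockout cells and the 29 called in sgNeg2 cells share 27 genes with the same direction. With 29 of 31 called in each, the lists could not share fewer than 27 genes, direction aside. No share over all genes is at hand for this overlap. SDF2L1 again changed most, by 3.06 ± 0.21 (SE), adjusted p = 1.69e-08. CRELD2, HYOU1, HSPA5 and PDIA3 followed at 1.97 ± 0.12, 1.9 ± 0.062, 1.52 ± 0.055 and 1.47 ± 0.065. PDIA4, DNAJB11 and CALR were at 1.22 ± 0.05, 1.22 ± 0.058 and 1.21 ± 0.055, XBP1 at 0.36 ± 0.056 and HERPUD1 at -0.63 ± 0.064. DNAJB9 fell, with a log2 change of -0.27 ± 0.11 and overlapping libraries. Its call was lost in 9 of 14 other settings, and its sign turned to 0.27 when the GC trend was removed. That setting gave 25 members higher and 4 lower in knockout cells.

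The choice of control set the size of these changes. The untreated guide libraries differ from the IFN libraries in depth and in small RNA share, whereas the DMSO libraries resemble them in both. The DMSO cells differ in other ways, being vehicle-treated and without sgNeg2, and their files list 15899 symbols against 26457. IFN cannot be told apart from these differences either. Against DMSO, 29 members were called, against 70.4% of all genes. Of these 17 rose and 12 fell (35.6% and 34.7% of all genes), with a median of 0.24 over members and -0.016 over all genes. The comparisons share the IFN libraries. Of the 21 genes higher against untreated cells, 16 were also higher against DMSO, and all 8 lower genes were lower against both. No share over all genes is at hand for these overlaps. SDF2L1 had 1.87 ± 0.069, CRELD2 1.28 ± 0.078, HYOU1 1.01 ± 0.023 and HSPA5 0.67 ± 0.017 against DMSO, smaller than above, and HERPUD1 had -0.54 ± 0.055. XBP1, CANX and DERL2 changed direction, to -0.16 ± 0.022, -0.051 ± 0.017 and -0.11 ± 0.049. The sensor ERN1 (0.81 ± 0.11) was called higher and DNAJB9 (-0.20 ± 0.085) lower against DMSO, though neither passed against untreated cells. HSPA5 itself was 1053 to 1065 CPM in DMSO libraries scaled with the drug set. The summed hepatocyte markers were 7219 to 7248 CPM without IFN and 8163 to 8281 CPM with it, with 2 of 10 higher, 4 lower and a median log2 change of -0.16. Fibroblast markers went from 3.06 to 6.26 CPM down to 1.54 to 1.88 CPM, with 3 of 4 tested lower, a median of -2.66 and COL1A2 and DCN at 0 with IFN. Endothelial markers went from 8.61 to 9.67 CPM to 3.19 to 4.38 CPM, with 2 of 3 tested lower, a median of -2.84 and VWF, CDH5 and KDR at 0 with IFN. The part of these lists was not tested. With the GC trend removed 23 members rose and 4 fell with IFN in sgNeg2 cells, against 21 and 8 without that step. DNAJB9 was then called higher, at 0.27 (adjusted p = 0.034, edgeR).

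**Figure D2:**
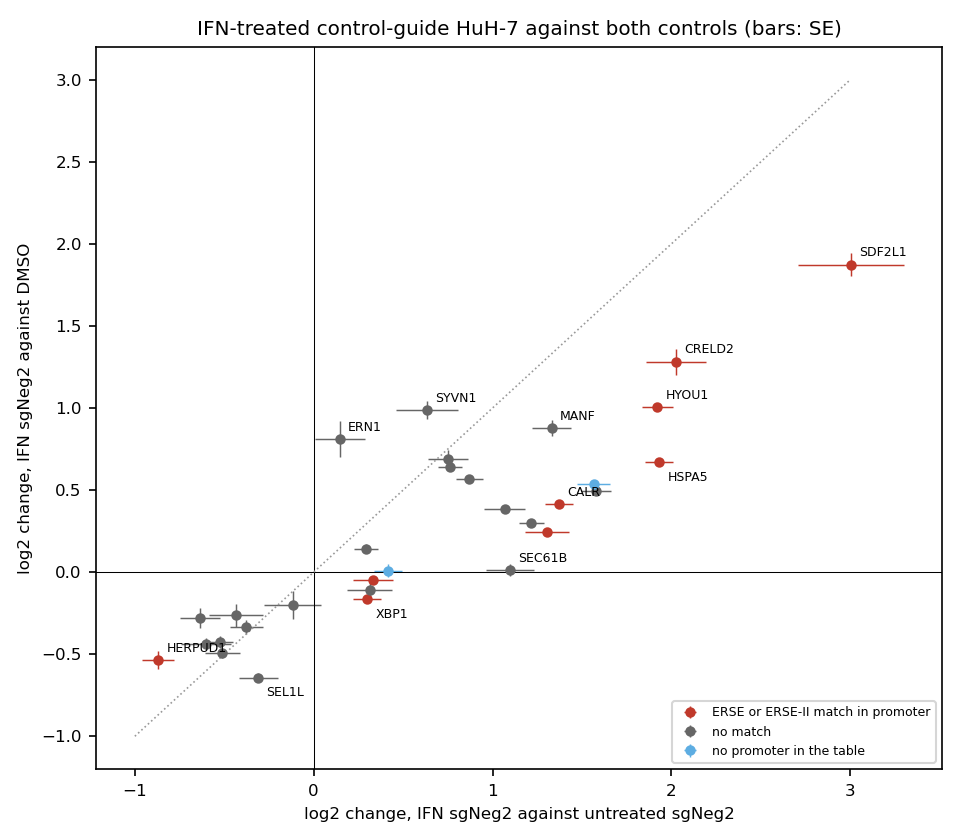
Log2 change of each of 31 members in IFN-treated sgNeg2 HuH-7 cells against untreated sgNeg2 cells (horizontal) and against DMSO-treated cells (vertical), with SE bars and the line of equality dotted. SDF2L1 lies farthest out on both axes at 3.0 and 1.87, most other points lie below the line, and XBP1 lies right of 0 and below 0.

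EPZ-5676 moved 14 of 31 members by small amounts, against 33.7% of all genes called. MANF, DNAJB11, EDEM3, SEC61A1, the channel of the translocon, and HSP90B1 rose, and HSPA5, CANX, PDIA3, PDIA6, ATF6, XBP1, HERPUD1, SEL1L and EDEM1 fell. Among all genes 15.1% rose and 18.6% fell. Libraries did not overlap for 18 members, against 43.8% of all genes, and the median was 0.0043 over members and 0.0091 over all genes. Changes of members ran from -0.22 to 0.22 on the log2 scale. MANF was 42.5, 42.9 and 39.4 CPM with DMSO and 49.6, 49.0 and 46.9 CPM with the inhibitor, without overlap, a log2 change of 0.22 ± 0.044 (SE), adjusted p = 3.36e-05. EDEM1 went from 199, 194 and 197 CPM to 172, 173 and 174 CPM, a log2 change of -0.18 ± 0.023 (SE), adjusted p = 7.16e-10. XBP1 went from 362, 362 and 354 CPM to 317, 316 and 318 CPM, a log2 change of -0.18 ± 0.018 (SE), adjusted p = 1.68e-13. All inhibitor libraries were below all DMSO libraries for both genes. HERPUD1 fell by less, from 46.4, 47.5 and 43.9 CPM to 39.2, 40.7 and 43.2 CPM, -0.16 ± 0.045 (SE), adjusted p = 0.00306. SEL1L, ATF6, DNAJB11 and EDEM3 had -0.16 ± 0.021, -0.13 ± 0.032, 0.11 ± 0.026 and 0.10 ± 0.025. HSPA5 had -0.029 ± 0.011 (adjusted p = 0.0384), a call lost in 7 of 11 other settings, 5 of them with 1 library left out, and at -0.0081 (adjusted p = 0.598, edgeR) with the GC trend removed. CALR (-0.0066 ± 0.0092), SDF2L1 (0.087 ± 0.079) and DNAJB9 (-0.0026 ± 0.064) did not pass.

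Knockout and inhibitor share no library in HuH-7. The 3 genes that fell with knockout, ATF6, XBP1 and HERPUD1, are among the 9 that fell with EPZ-5676 (100% and 33.3% of the lists, against 67.2% and 17.3% over all genes). Of the 4 that rose with knockout, 3 (DNAJB11, HSP90B1 and MANF) are among the 5 that rose with the inhibitor (75% and 60%, against 61.7% and 31% over all genes). The knockout calls of ATF6 and HSP90B1 in these overlaps are those lost in 8 and 11 of 15 settings. Those of MANF, XBP1, DNAJB11 and HERPUD1 were lost in 4, 4, 3 and 2 of 15. HSPA5 was called higher with knockout and lower with the inhibitor, calls lost in 3 of 15 and 7 of 11 settings, and this difference was not tested. Hepatocyte markers summed to 12300 to 12390 CPM with DMSO and 10770 to 10830 CPM with EPZ-5676, and their part was not tested.

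In Hepa1-6 the set went down. Knockout lowered 23 of 32 members and raised 1, Sec61b, a small translocon subunit, against 18.3% and 14.5% of all genes (32.8% called). Libraries did not overlap for 28 members, against 48.7% of all genes. The median log2 change was -0.15 over members and 0.012 over all genes. All 3 chaperones, both lectin chaperones, all 4 disulfide isomerases, both secreted factors, all 3 sensors and both transcription factors fell. Ern1 showed the largest drop, from 63.5 and 57.8 CPM to 30.4 and 28.2 with guide 1 and 31.5 and 34.8 with guide 2. Its edited libraries lay far below both controls, with a log2 change of -0.95 ± 0.068 (SE), adjusted p = 4.35e-10. Creb3l2 was 30.4 and 33.5 CPM in the sgNeg2 libraries, 22.6 and 23.9 with guide 1 and 20.4 and 21.5 with guide 2, a log2 change of -0.52 ± 0.08 (SE), adjusted p = 2.84e-05.

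Hyou1 was 299.6 and 288 CPM in the sgNeg2 libraries, 237 and 227 with guide 1 and 212 and 214 with guide 2, with no overlap and a log2 change of -0.39 ± 0.042 (SE), adjusted p = 2.57e-07. Sdf2l1 was at -0.37 ± 0.092, Eif2ak3 at -0.36 ± 0.064, Dnajc3 at -0.29 ± 0.062, Sel1l at -0.29 ± 0.057 and Syvn1 at -0.28 ± 0.061, all lower. P4hb, with the highest CPM of the set in this line, went from 4670 and 4682 CPM to 4038 and 4037 with guide 1 and 3913 and 4007 with guide 2. Every edited library was lower, and the log2 change was -0.21 ± 0.033. Hspa5 went from 1612 and 1613 CPM to 1401 and 1431 and 1371 and 1382, -0.20 ± 0.034 (SE), adjusted p = 9.79e-05. Calr had -0.26 ± 0.043 (SE), adjusted p = 7.23e-05 and Xbp1 -0.10 ± 0.034 (SE), adjusted p = 0.0253, while Herpud1 (-0.064 ± 0.043) and Dnajb9 (-0.09 ± 0.092) did not pass. With guide 1 alone and with guide 2 alone 22 members were called in the same direction. The summed levels of the 8 listed hepatocyte markers went from 17220 to 17390 CPM to 12140 to 12590 CPM, with none at 0 and 5 of 8 lower. Fibroblast markers, nearly all Dcn, went from 404 to 419 CPM to 331 to 344 CPM. The part of either list in the result was not tested.

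Hep53.4 went the other way for many folding genes. Knockout raised 10 of 32 members, namely the chaperones Hspa5, Hsp90b1 and Hyou1, the lectin chaperones Calr and Canx, the isomerases P4hb, Pdia4 and Pdia6, and Edem1 and Edem2. It lowered 7, namely Ern1, Atf6, Creb3l2, the protease Mbtps1 that cuts ATF6, the J proteins Dnajb9 and Dnajc3, and Derl2. Of all genes 39.2% were called, 19.4% higher and 19.7% lower. Libraries did not overlap for 23 of 32 members, against 52.3% of all genes. The median was 0.056 over members and -0.0027 over all genes. Calr was 1128 and 1132 CPM in the sgNeg2 libraries, 1475 and 1486 with guide 1 and 1414 and 1448 with guide 2. All edited libraries exceeded the controls, with a log2 change of 0.36 ± 0.025 (SE), adjusted p = 1.07e-12. Hspa5 was 1056 and 1058 CPM in the sgNeg2 libraries, 1205 and 1198 with guide 1 and 1229 and 1231 with guide 2, 0.20 ± 0.025 (SE), adjusted p = 1.01e-07. P4hb was 1588 and 1594 CPM in the sgNeg2 libraries, 1844 and 1888 with guide 1 and 1844 and 1815 with guide 2, 0.22 ± 0.024 (SE), adjusted p = 1.97e-08.

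Ern1 fell in this line too, from 60.9 and 59.4 CPM to 41.1 and 40.3 with guide 1 and 39.8 and 42.4 with guide 2, a log2 change of -0.56 ± 0.048 (SE), adjusted p = 9.47e-11. Dnajc3, a J protein of the ER lumen, was 53.3 and 53.2 CPM in the sgNeg2 libraries, 35.7 and 34.9 with guide 1 and 41.2 and 41.4 with guide 2, -0.48 ± 0.059 (SE), adjusted p = 1.25e-07. Neither gene had overlapping groups. Atf6 had -0.22 ± 0.031, Dnajb9 -0.21 ± 0.056 and Mbtps1 -0.21 ± 0.032. Xbp1 (0.065 ± 0.028), Herpud1 (0.026 ± 0.03) and Sdf2l1 (-0.0084 ± 0.085) did not pass. With guide 1 alone and with guide 2 alone 15 members were called in the same direction. Hepatocyte markers summed to 218 to 220.5 CPM in sgNeg2 and 174 to 180.5 CPM in edited libraries, where Ttr and Ahsg were at 0. Endothelial markers, of which Cdh5 was highest, went from 50.7 to 51.9 CPM to 29.3 to 33.6 CPM, with Tek at 0 in sgNeg2. Of 4 tested endothelial markers 1 rose and 1 fell, with a median of 0.41, and the part of either list was not tested.

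In LLC, 21 of 31 tested members fell and 1, Mbtps1, rose, against 17.5% and 16.0% of all genes (33.5% called). Libraries did not overlap for 26 of 31, against 50.0% of all genes. The median was -0.14 over members and 0.0083 over all genes. All 3 sensors, all 3 chaperones, all 4 isomerases and both translocon subunits fell, as did 5 of 8 ERAD genes. Ern1 went from 34.9 and 34.9 CPM to 21.7 and 23.4 with guide 1 and 22.1 and 23.4 with guide 2, a log2 change of -0.65 ± 0.058 (SE), adjusted p = 7.76e-08. Herpud1 was 52.7 and 50.4 CPM in the sgNeg2 libraries, 39.1 and 38.3 with guide 1 and 41.8 and 41.2 with guide 2, -0.38 ± 0.052 (SE), adjusted p = 1.08e-05. Creb3l2 was 69.9 and 70.3 CPM in the sgNeg2 libraries, 57.4 and 54.1 with guide 1 and 60.3 and 57.8 with guide 2, -0.31 ± 0.047 (SE), adjusted p = 3.93e-05. For these genes every edited library was below both controls. Edem2, Sec61b, P4hb, Pdia3 and Eif2ak3 had -0.30 ± 0.049, -0.27 ± 0.046, -0.26 ± 0.042, -0.25 ± 0.035 and -0.23 ± 0.053. Xbp1 had -0.23 ± 0.039, Sdf2l1 -0.23 ± 0.06 and Hspa5 -0.14 ± 0.037, while Calr (-0.062 ± 0.039) and Dnajb9 (-0.093 ± 0.057) did not pass. Mbtps1 was 233 and 247 CPM in the sgNeg2 libraries, 274 and 263 with guide 1 and 264 and 257 with guide 2, higher in all edited libraries, 0.12 ± 0.037 (SE), adjusted p = 0.0175. All 22 called members were also called with each guide alone. Without sgNeg2 replicate 1, 14 members were called, and without sgNeg2 replicate 2, 12. Fibroblast markers, led by Pdgfrb, summed to 34.0 to 35.6 CPM in sgNeg2, with Dcn at 0, and 33.9 to 40.2 CPM in edited libraries, with 3 of 5 higher, and their part was not tested.

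**Figure D3:**
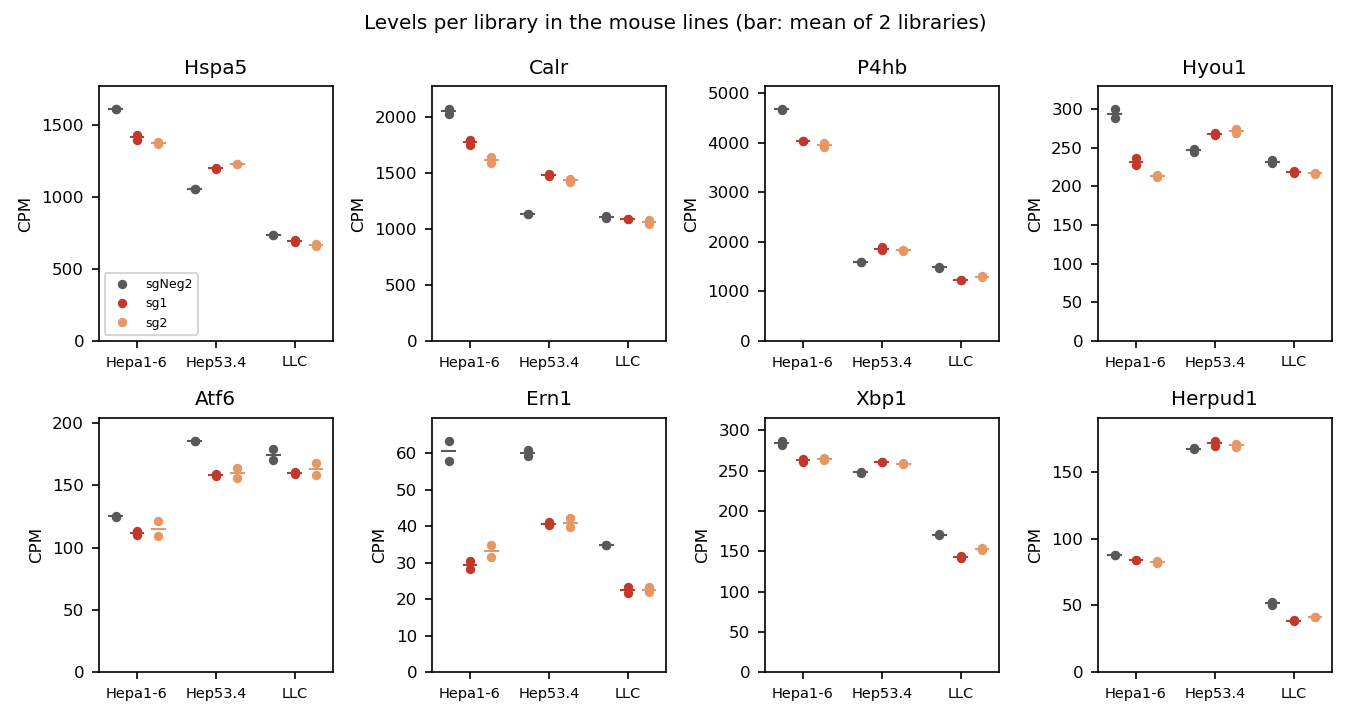
Levels of 8 members in each mouse library in CPM, with a point per library and a bar at the mean of the 2 libraries of a guide. In Hspa5, Calr, P4hb and Hyou1 the edited libraries lie below sgNeg2 in Hepa1-6 and above it in Hep53.4, and Ern1 lies below sgNeg2 in all 3 lines.

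The difference between lines was tested in a joint fit of the 18 mouse libraries. Between Hepa1-6 and Hep53.4 the knockout change was lower in Hepa1-6 for 22 of 32 members and higher for 1, against 14.5% and 10.2% of all genes (24.7% called). Differences reached -0.64 ± 0.054 (SE), adjusted p = 1.36e-10 for Calr, -0.53 ± 0.052 for Hyou1, -0.44 ± 0.048 for P4hb and -0.41 ± 0.046 for Hspa5. Ern1 fell in both lines and fell further in Hepa1-6, by -0.40 ± 0.089 (SE), adjusted p = 0.000849. Other called members of the panel were Sdf2l1 (-0.37 ± 0.11) and Xbp1 (-0.18 ± 0.047), and Eif2ak3 (-0.39 ± 0.078) and Creb3l2 (-0.37 ± 0.084) completed the 8 with the largest differences. Herpud1 (-0.10 ± 0.055) and Dnajb9 (0.11 ± 0.097) did not pass.

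Between Hep53.4 and LLC the change was higher in Hep53.4 for 16 members and lower for 4, against 13.4% and 15.8% of all genes (29.2% called). P4hb differed by 0.46 ± 0.048, Edem2 by 0.44 ± 0.064, Calr by 0.41 ± 0.054, Herpud1 by 0.39 ± 0.056, Pdia4 by 0.33 ± 0.046, Sec61b by 0.32 ± 0.066, Hspa5 by 0.32 ± 0.046 and Xbp1 by 0.28 ± 0.048. Dnajc3 (-0.43 ± 0.11) and Mbtps1 (-0.35 ± 0.051) differed in the opposite sense, and Sdf2l1 (0.20 ± 0.11) and Dnajb9 (-0.14 ± 0.092) did not pass. Between Hepa1-6 and LLC fewer members differed, 7 lower and 2 higher in Hepa1-6, against 15.3% and 9.28% of all genes (24.6% called), and 5 in all without LLC sgNeg2 replicate 1. Sec61b (0.38 ± 0.066) and Herpud1 (0.29 ± 0.057) were higher in Hepa1-6. Lower there were Ern1 (-0.33 ± 0.091), Hyou1 (-0.31 ± 0.052), Creld2 (-0.26 ± 0.08), Creb3l2 (-0.24 ± 0.083), Calr (-0.23 ± 0.054), Edem3 (-0.20 ± 0.068) and Mbtps1 (-0.20 ± 0.051). Hspa5 (-0.09 ± 0.046), Xbp1 (0.099 ± 0.047), Sdf2l1 (-0.18 ± 0.11) and Dnajb9 (-0.029 ± 0.097) did not pass.

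The lines share no library, so their lists can be set side by side. Hepa1-6 and LLC had 18 falling members in common, which is 78.3% of the Hepa1-6 list and 85.7% of the LLC list. Over all genes 604 fell in both, 26.4% and 28.2% of those lists. Of the 10 members that rose in Hep53.4, 9 fell in Hepa1-6 (90% of the one list and 39.1% of the other) and 8 fell in LLC (80% and 38.1%). Over all genes these shares were 19.4% and 20.2% with Hepa1-6 and 32% and 35.6% with LLC. Much of each overlap follows from the counts of calls alone, as 23 of 32 members fell in Hepa1-6 and 21 of 31 in LLC. Overlap beyond that was not tested. Hspa5, Hsp90b1, Hyou1, P4hb, Pdia4, Pdia6 and Edem2, 7 genes, rose in Hep53.4 and fell in both Hepa1-6 and LLC. Atf6, Creb3l2 and Ern1 fell in all 3 mouse lines. For these 7 and 3 genes no share over all genes is at hand.

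Across the 6 DOT1L comparisons, knockout in HuH-7 with and without IFN, inhibitor and 3 mouse lines, 14 of 32 members were called higher in at least 1 and lower in at least 1, against 27.9% of the 9164 symbols tested in all 6, human and mouse symbols being matched in capitals. ATF6 was called lower in 5 of 6, as 76 of the 9164 symbols were in 5 or 6, with none of these called higher. Its call in untreated HuH-7 knockout cells is the one lost in 8 of 15 settings, and its change was negative in all 6, the remaining value being -0.065 ± 0.078 with IFN. CREB3L2 was also negative in all 6 and was called in the 3 mouse lines. XBP1 was called lower in 4, in the HuH-7 knockout without IFN, with EPZ-5676, in Hepa1-6 and in LLC. The first of these XBP1 calls was lost in 4 of 15 other settings. The Hepa1-6 call was lost in 2 of 13, those that left 1 sgNeg2 library. SEL1L, PDIA3 and PDIA6 were called lower with EPZ-5676, in Hepa1-6 and in LLC, though PDIA6 was called higher in Hep53.4. HSPA5 was called lower in the same 3 and higher in 2, and EDEM1 lower in 3 and higher in 1. HERPUD1 was called lower in the HuH-7 knockout without IFN, with EPZ-5676 and in LLC. ERN1 was called in the 3 mouse lines only, with HuH-7 values of 0.089 ± 0.12, 0.19 ± 0.12 and -0.22 ± 0.11 that did not pass. DERL3 was not called in any. It had 27 counts in the 2 Hepa1-6 sgNeg2 libraries and 101 in the 4 edited ones, at most 0.76 CPM, and less elsewhere. As a share of all counts the members held 0.737% in sgNeg2 and 0.845% in edited HuH-7 cells, 1.40% and 1.27% in Hepa1-6, 0.847% and 0.893% in Hep53.4 and 0.832% and 0.801% in LLC.

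**Figure D4:**
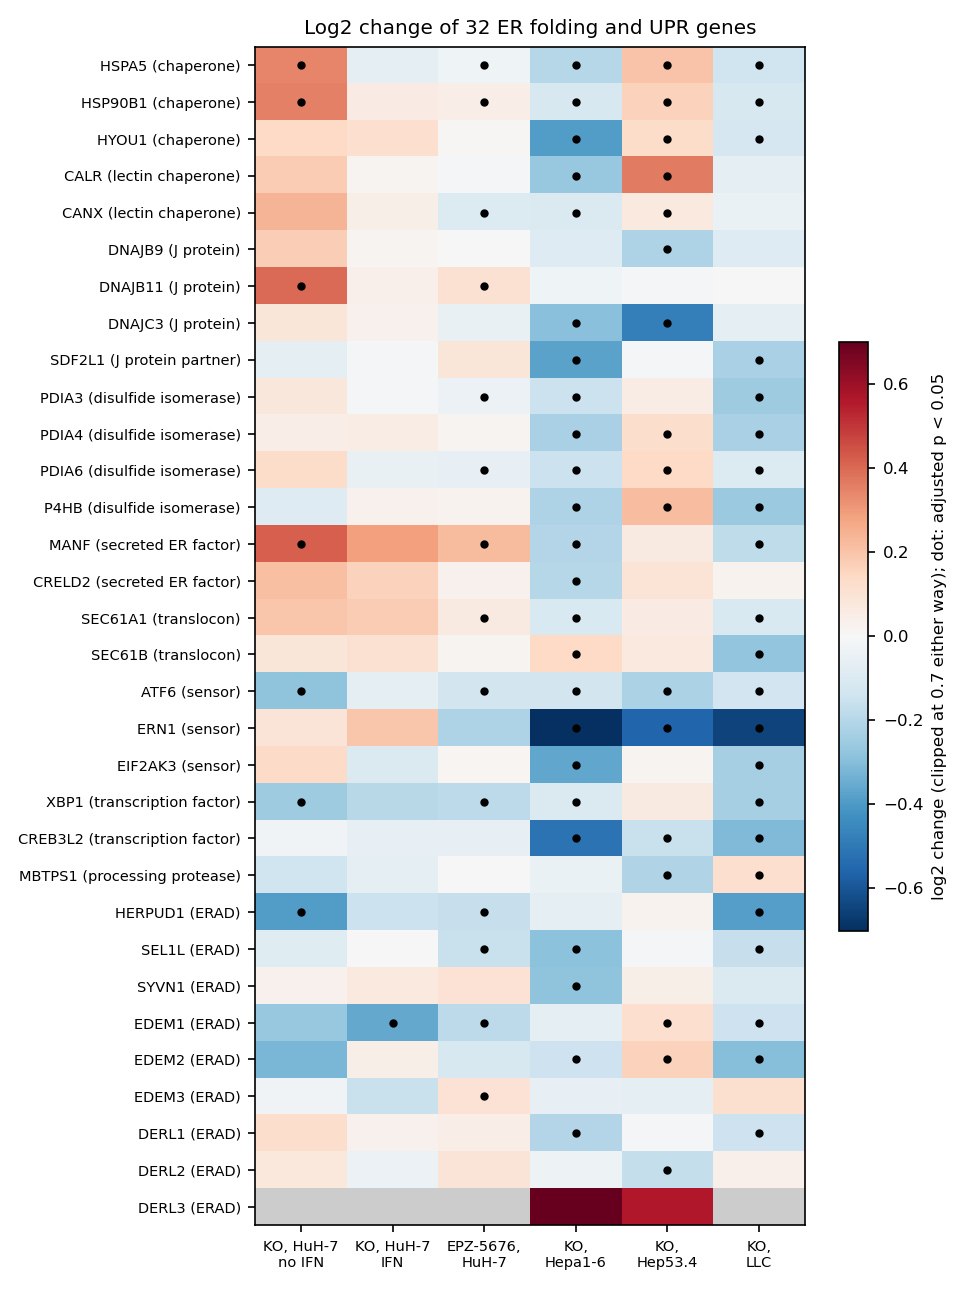
Log2 change of the 32 members (rows, by role) in 6 DOT1L comparisons (columns), coloured from blue (lower) to red (higher) and clipped at 0.7, with a dot where the adjusted p is below 0.05 and grey where a gene was not tested. Hepa1-6 and LLC are mostly blue, and ATF6 carries a dot in 5 columns. In Hep53.4 the chaperones and lectin chaperones are red, while the J proteins DNAJB9 and DNAJC3 are blue.

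Other genes of the pathway gave the following counts. PERK and ATF4 outputs, 9 genes of the arm that slows translation and induces stress transcription factors, split by line. Shares of all genes higher and lower were 14.5% and 18.3% in Hepa1-6, 19.4% and 19.7% in Hep53.4, 16.0% and 17.5% in LLC, 6.95% and 4.38% in HuH-7 knockout without IFN, 7.11% and 5.27% with IFN, 15.1% and 18.6% with EPZ-5676 and 33.0% and 34.7% with IFN in sgNeg2 cells. In Hepa1-6 4 rose and 1 fell, led by Atf3 (0.41 ± 0.078) and Trib3 (0.41 ± 0.046). In Hep53.4 none rose and 5 fell, led by Chac1 (-0.66 ± 0.064) and Atf4 (-0.54 ± 0.029), and in LLC 1 rose and 7 fell, led by Chac1 (-1.04 ± 0.085). HuH-7 knockout had 1 higher and 3 lower without IFN, with ATF3 (0.62 ± 0.11) and CHAC1 (-0.90 ± 0.23), and 1 higher and 3 lower with IFN, with ATF3 (0.50 ± 0.098) and DDIT3 (-0.42 ± 0.12). EPZ-5676 raised 3 and lowered none, led by ATF3 (0.70 ± 0.13) and ASNS (0.16 ± 0.028). In IFN-treated against untreated sgNeg2 cells 7 were higher and none lower, led by CHAC1 (2.05 ± 0.25) and TRIB3 (1.82 ± 0.19).

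Among 37 further folding and glycosylation genes 1 rose and 17 fell in Hepa1-6, where Uggt1 (-0.50 ± 0.037), the glycoprotein folding sensor, fell most. LLC had 2 higher and 15 lower, with Uggt2 (0.54 ± 0.16) and Fkbp7 (-0.37 ± 0.11), and Hep53.4 10 higher and 9 lower, with Creld1 (0.38 ± 0.047) and Dnajc25 (-0.46 ± 0.12). HuH-7 knockout without IFN raised 3 and lowered none, led by NUCB2 (0.50 ± 0.13), and with IFN it raised 1, DNAJC1 (0.31 ± 0.084), and lowered none. EPZ-5676 raised 9 and lowered 4, also led by NUCB2 (0.32 ± 0.025). In IFN-treated against untreated sgNeg2 cells 20 were higher and 4 lower, led by TXNDC5 (3.46 ± 0.43). Of the other ERAD genes, Os9, a lectin of the SEL1L complex, was among 6 of 19 that fell in Hepa1-6 and 3 of 19 in LLC, at log2 changes of -0.40 ± 0.040 and -0.44 ± 0.036. The translocon and signal peptide list of 16 had 4 higher and 4 lower in Hepa1-6, 2 and 6 in Hep53.4 and 0 and 6 in LLC. In Hep53.4 Sec63 (-0.32 ± 0.038) and in LLC Sec61g (-0.22 ± 0.045) fell. The list of 12 other sensors and regulators had 0 higher and 3 lower in HuH-7 knockout without IFN and with EPZ-5676, 0 and 0 in Hepa1-6, 2 and 4 in Hep53.4 and 2 and 3 in LLC, where Wfs1 (-0.35 ± 0.11), an ER membrane protein, fell. Set against the shares of all genes above, several of these counts lay near the background. Among them were the 3 folding genes higher in HuH-7 knockout without IFN, the 3 ERAD genes lower in LLC and both counts of the regulators in LLC. Others were the 2 regulators higher and the 9 folding genes lower in Hep53.4, and the 3 regulators lower with EPZ-5676. The 1 folding gene higher in Hepa1-6 and the 1 higher in HuH-7 knockout with IFN lay below the background.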

How the data were processed

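RNA was sequenced in 36 libraries of 1 human and 3 mouse cell lines. Per the labels' protocols, RNA came from a column kit and libraries from a VAHTS Universal V6 kit. The authors deposited raw read counts per gene symbol for each library. The submitters' processing notes list, with no roles, the builds hg38 and mm10 and the tools HISAT2 2.2.1, Trim Galore, DESeq2 1.36.0 and SAMtools 1.9. The counter, the annotation and the use of strand were not given in the sources used here, so reads of a gene and an antisense partner may not be told apart. Rows with a blank name were dropped, 1721 in each Hepa1-6 sgNeg2 file and 1 in each Hep53.4 sgNeg2 file.

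Counts were fitted with edgeR 4.0.16 in R 4.3.3 (filterByExpr with a minimum count of 10 and a total of 15, TMM scaling, robust quasi-likelihood test). One fit held the 12 HuH-7 guide libraries, others the 6 drug libraries or the 6 of a mouse line, and a joint fit the 18 mouse libraries for differences between lines. P-values were adjusted by the Benjamini-Hochberg method over all genes, and calls have an adjusted p below 0.05. CPM were scaled within the guide, drug and mouse sets separately, so levels compare only within a set. The script was tested on simulated data. Alternatives were relative log expression scaling, no filter, DESeq2 1.42.0, each library left out, a replicate block, each guide alone, GC trend removal, removal of histone and small RNA genes, separate or joint fits, and DMSO as IFN control. The genes, lists and motifs were chosen with earlier results of these data known. Named genes are the called members with the largest changes, at most 8 a comparison, a panel of HSPA5, DNAJB9, HERPUD1, XBP1, SDF2L1 and CALR, and the 2 largest called genes of each other list.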

Additional observations from a re-analysis of the deposited data

Results flagged for a closer look

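Of 160 groups of 4 edited libraries tested, 9 held a library far from the other three, where chance flags about 1 in 20. The figure given is the gap to the nearest library as a share of the range. In untreated HuH-7 knockout cells ERN1 (0.892) and SYVN1 (0.853) were low in guide 2 replicate 2, at 13.0 CPM against 15.7 to 16.0 and 32.8 CPM against 42.3 to 44.0. DERL3 in HuH-7 knockout cells without and with IFN and Derl3 in LLC knockout cells were at 0 in all but 1 library each (a share of 1), so these rest on 1, 4 and 2 reads. In Hepa1-6 knockout cells Pdia4 (0.922) was high in guide 1 replicate 2, at 236 CPM against 225 to 226, and Derl2 (0.874) was low in guide 1 replicate 1, at 41.7 CPM against 46.2 to 46.8. Pdia6 (0.859) was low in Hep53.4 guide 1 replicate 2, at 351 CPM against 366 to 368, and Calr (0.90) in LLC guide 2 replicate 2, at 1044 CPM against 1080 to 1084.

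Knockout changes that differed between mouse lines in the joint edgeR fit were flagged too, given as differences of log2 changes. In Hepa1-6 against Hep53.4 these were Hspa5 (-0.41), Calr (-0.64), P4hb (-0.44), Hyou1 (-0.53), Sdf2l1 (-0.37), Xbp1 (-0.18), Ern1 (-0.40), Eif2ak3 (-0.39) and Creb3l2 (-0.37). In Hepa1-6 against LLC they were Calr (-0.23), Hyou1 (-0.31), Herpud1 (0.29), Ern1 (-0.33), Edem3 (-0.20), Creld2 (-0.26), Sec61b (0.38) and Creb3l2 (-0.24). In Hep53.4 against LLC they were Hspa5 (0.32), Calr (0.41), Pdia4 (0.33), P4hb (0.46), Dnajc3 (-0.43), Herpud1 (0.39), Xbp1 (0.28), Edem2 (0.44), Sec61b (0.32) and Mbtps1 (-0.35).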

How the results depend on the processing

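The HuH-7 knockout counts depended most on the processing. Without IFN the 7 called members became 17 with the GC trend removed, 2 with guide 2 alone, 11 in a fit of the 6 libraries of the setting, and 0 to 7 with a library left out. With IFN the 1 called member became 2 with relative log expression scaling, 3 with DESeq2, 4 with the GC trend removed, 3 without histone and small RNA genes, 2 with guide 1 alone, 6 with guide 2 alone and 0 to 1 with a library left out. The interaction gave 1 call, HSPA5, with DESeq2. Leaving out a library gave 12 to 21 calls in LLC and 5 to 11 for Hepa1-6 against LLC. The cause of these shifts was not tested beyond the smaller number of libraries.

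For single genes, counted as pairs of a result and a setting, a call was lost in 20 pairs under other settings and in 58 with a library left out, and gained in 10. Signs changed as follows. SDF2L1 in the knockout with IFN was 0.0061 with relative log expression scaling, 0.0063 with DESeq2, 0.040 without histone and small RNA genes, 0.28 with guide 2 alone and 0.041 in the 6-library fit. Without IFN it was 0.067 with the GC trend removed and 0.066 with guide 1 alone. CALR in the knockout with IFN was -0.017 with the GC trend removed and -0.060 with guide 1 alone, and 0.0037 with EPZ-5676 and the GC trend removed. DNAJB9 with the GC trend removed was 0.27 with IFN in sgNeg2 and in knockout cells, the latter a called change in the report, and 0.00090 with EPZ-5676, and it was -0.15 in the knockout with IFN with guide 2 alone. Sdf2l1 in Hep53.4 was 0.074 with guide 1 alone, and XBP1 with IFN, 0.30 against untreated cells, was -0.16 against DMSO. With a library left out, CALR in the knockout with IFN ranged from -0.0089 to 0.054. DNAJB9 ranged from -0.33 to 0.072 with IFN in sgNeg2, from -0.34 to 0.11 for the interaction, from -0.038 to 0.35 in the knockout without IFN, from -0.11 to 0.16 with IFN, from -0.029 to 0.029 with EPZ-5676 and from -0.12 to 0.054 for Hepa1-6 against LLC. SDF2L1 ranged from -0.22 to 0.10 in the knockout without IFN, from -0.16 to 0.10 with IFN and from -0.12 to 0.26 for the interaction, and Sdf2l1 from -0.054 to 0.031 in Hep53.4.

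Same-numbered replicates did not pair the samples, with residual correlations of -0.061 to 0.063 over 27 distinct pairs of groups or libraries. With the number as a replicate block 5 members were called in the HuH-7 knockout without IFN, where ATF6 (adjusted p = 0.0533) and HSP90B1 (0.0679) were lost with edgeR, 1 with IFN, 28 with IFN treatment in sgNeg2 and 28 in knockout cells, 0 for the interaction, 13 with EPZ-5676, 24 in Hepa1-6, 16 in Hep53.4 and 21 in LLC, and 23, 9 and 20 for the line differences. Removal of the GC trend was not run in mouse. Genes with few reads, DERL3 above all, are limited by depth.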
